A study of Mus musculus with 24 samples.

Results

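The 42 genes described here encode the transcription factor MYC and proteins that build ribosomes, out of 24121 named genes on the array. Their probes were taken by symbol, as every gene probe whose name in the scanner files is one of the 42. The list of members was chosen with earlier results of these data known. All 42 had at least 1 of the 63 probes found, and 36 passed the filter on signal and were tested.

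Ribosomes are assembled in the nucleolus. There RNA polymerase I transcribes the ribosomal RNA precursor, small nucleolar ribonucleoprotein particles (snoRNPs) modify it, and assembly factors cleave it and fold it into the small and the large subunit. MYC, which binds DNA together with MAX at the E-box CACGTG, is a known activator of many of these genes, and T cells that are stimulated through their receptor are known to raise MYC and to enlarge their nucleoli before they divide.

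The arrays measured CD45.1 CD8+ OT-I T cells, whose transgenic receptor recognises an ovalbumin peptide, on a C57Bl/6 background. Control cells came from the graft on day 0 (4 samples). The other 20 samples were taken on day 4 from blood, liver, lung and small intestine (5 samples each) of Act-mOVA recipients, C57Bl/6 mice that carry an ovalbumin transgene under the CAG promoter, which is active in most tissues. Recipients had received 11 Gy of total body irradiation in 2 doses, then bone marrow cells and splenocytes from OT-I donors, and developed acute graft-versus-host disease. The labels give every sample an age of 8 to 16 weeks and the sex as female. Cells were enriched by magnetic selection for CD45.1, which the labels give as carried by the OT-I CD8+ T cells and by no other graft or recipient cell, and 300 pg of RNA per sample went through 2 rounds of amplification. No label ties a sample to an animal of its own. The p-values therefore describe only how these samples vary, which may be technical.

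Between 23.2% and 39.24% of gene spots were well above background on an array, a flag of the scanner software. Of 10 T cell markers, 9 were above background on every array of every group. The 4 graft arrays shared 1 slide, and the day 4 arrays lay on 5 other slides, each holding 1 array of every site. By the file headers the graft arrays were also scanned on a different day from the day 4 arrays. Slide and scan day therefore cannot be told apart from graft in any comparison with the graft. Counts are also given without lung 4 and intestine 4, which had low signal for several members. The graft arrays also carried signal of other cells: 7 of 8 tested B cell markers were lower at day 4, with a summed linear signal of 224 to 283 in the graft and 3.86 to 29.2 at day 4, and 7 of 9 tested neutrophil and monocyte markers were lower, with sums of 417 to 544 against 53.8 to 225. The part of these cells in the differences from the graft was not tested. In bulk samples, fewer cells of a type and less RNA per cell cannot be told apart.

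The promoters of 3 members show the E-box in its surroundings, because it is the sequence through which MYC could act on the members and because Nop2, Pes1 and Wdr43 return in the results. The sequences are RefSeq promoters on GRCm38.p6, all on the plus strand, from 70 bases before to 30 bases after the start of the gene, with the E-box in capitals. Nop2 is shown at chr6:125131813-125131912, Pes1 at chr11:3963905-3964004 and Wdr43 at chr17:71616145-71616244.
Nop2: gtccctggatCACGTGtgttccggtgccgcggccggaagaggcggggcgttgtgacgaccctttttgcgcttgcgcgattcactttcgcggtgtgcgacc
Pes1: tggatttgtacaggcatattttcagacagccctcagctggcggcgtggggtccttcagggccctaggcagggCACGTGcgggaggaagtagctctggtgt
Wdr43: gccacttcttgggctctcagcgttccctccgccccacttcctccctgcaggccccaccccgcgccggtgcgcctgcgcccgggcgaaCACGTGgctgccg
The E-box began 60 bases before the start in Nop2, and 3 and 18 bases after it in Pes1 and Wdr43. CACGTG reads the same on both strands, so 1 search covered both. Of the 36 members found in the promoter table, 7 held it within the 300 bases from 250 before to 50 after the start (19.44%): Rrn3, with 2 copies, Wdr43, Utp20, Tsr1, Pes1, Nop2 and Mybbp1a. The share was 8.09% of all 27025 promoters of that length and 11.8% of the 7299 promoters of tested genes. Only Pes1 among the 16 of these members called higher at day 4 and Tsr1 among the 4 called lower held the E-box, against 4 of 11 members not called. A match is a description of the letters and not of binding. Myc, Fbl, Rrp12, Bop1, Rrs1 and Npm1 were not in the table.

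Day 4 was compared with the graft to ask how the members' signal differed between these samples. Taking the 4 sites together, 17 of the 36 tested members were higher than in the graft, 6 were lower and 13 did not pass the test (limma, adjusted p under 0.05 over 9509 tested genes). The members called higher were 47.2% of those tested, where 33.6% of all tested genes were higher, and those called lower were 16.7%, where the background was 20%; 53.5% of all genes were called in either direction. Their median log2 difference was 0.63, against 0.20 over all tested genes. RNA polymerase I subunits, proteins of the box H/ACA and box C/D snoRNPs and large subunit factors made up 14 of the 17 higher members. These roles hold 7, 8 and 9 of the 36 tested members, so most calls would fall in them in any case. The 6 lower members were Ubtf, Wdr75, Tsr1, Rrs1, Npm1 and Ncl. Counts by role below stand against the same shares of all genes, 33.6% higher and 20% lower.

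The split depended on how arrays were scaled to each other. It was 17 higher and 6 lower in the main values, 21 and 4 after normexp background correction, 12 and 7 both with quantile-normalised signal and with the authors' log2 values, and 9 and 6 or 9 and 8 when arrays were scaled to the 75th percentile or the median of probes detected on all arrays. The median of all tested genes moved with it, from 0.27 with normexp to -0.32 with the detected-probe median, while the members' median lay 0.21 to 0.43 above it in each. The share of members called higher came closer to that of all genes: it was 33.3% against 27% with quantile normalisation and with the authors' log2 values, and 25% against 22.9% or 21.9% under the detected-probe scalings, near the background. With normexp it was 58.3% against 36.1%. Under all 6 scalings 9 members were called higher (Polr1d, Polr1e, Nop58, Gar1, Nhp2, Heatr1, Bop1, Wdr12 and Rrp1b) and 4 lower (Ubtf, Wdr75, Npm1 and Ncl). Each scaling used the same probe for a gene, so their agreement says nothing about the choice of probe. The direction of Npm1 rests on that choice, and the Ubtf and Wdr12 probes have limits given below. All 20 day 4 arrays lay above every graft array for 6 members (11% of all genes) and below for 4 (6.32% of all genes). Another 10 members changed sign between scalings, and none of these was called in the main values. Without lung 4 and intestine 4, 20 members were higher and 6 lower.

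**Figure D1:**
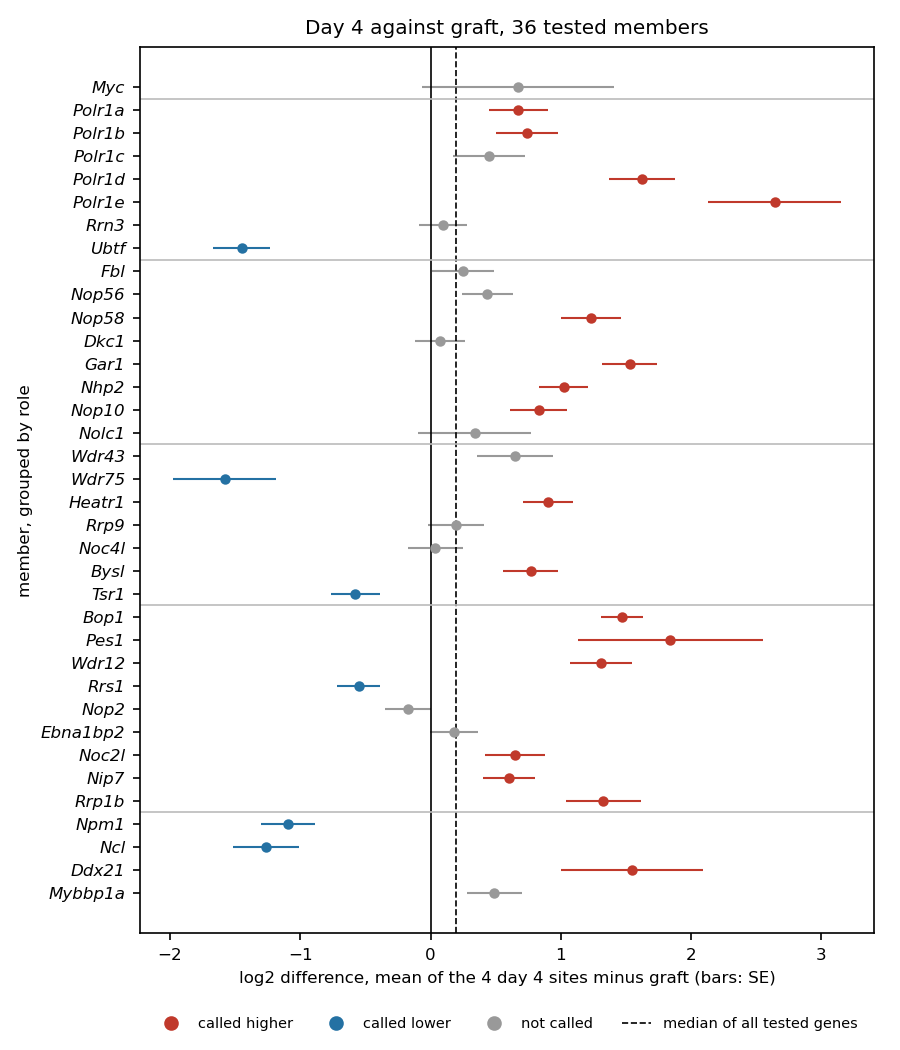
Log2 difference between the mean of the 4 day 4 sites and the graft (horizontal axis, points with SE bars) for the 36 tested members, grouped by role from MYC at the top to multifunctional nucleolar proteins at the bottom. The 17 members called higher are red, the 6 called lower blue and the 13 not called grey, and the dashed line marks the median of all tested genes at 0.20; the points of Polr1e and Pes1 rest on graft signals below background.

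Myc had no call in any comparison. Its probe (chr15:61821417-61821476, mm9, as are all probe positions here, which were not matched to exons) was near background: it was well above background on 1 of 4 graft arrays, 2 of 5 in blood, 4 of 5 in liver and 3 of 5 in both lung and intestine. The log2 signal, relative to the 75th percentile of each array, was -1.10, -3.03, -1.03 and -1.59 on the graft arrays and -2.23, -1.10, -1.43, -3.93 and -0.55 in blood. It was -0.51, 0.75, 0.58, -3.60 and 0.70 in liver, -0.89, 1.30, -0.12, -2.43 and -2.99 in lung and 0.048, -0.55, -0.79, -2.67 and 0.060 in intestine. The groups overlapped, and both liver and lung held arrays at or above the highest graft value as well as arrays below nearly all of them. Day 4 differed from the graft by 0.67 ± 0.74 (SE), adjusted p = 0.451 with limma, with a 95% interval of the difference from -0.85 to 2.19. By site the estimates were -0.16 (blood), 1.27 (liver), 0.66 (lung) and 0.91 (intestine), with adjusted p from 0.246 to 0.893. Among the 4 sites the F test gave an adjusted p of 0.49. Liver lay 1.43 above blood by estimate, with an interval from -0.33 to 3.19.

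Of 11 genes of the MAX network, 4 were tested, and over all sites 0 of them were called higher or lower than in the graft by limma: Max, the partner of MYC (0.42, adjusted p = 0.11), Mxd1 (-0.35, adjusted p = 0.39), Mxd3 (0.49, adjusted p = 0.169) and Mnt (-0.42, adjusted p = 0.242), which encode repressors that compete with MYC for MAX. By site, Max was higher in blood than in the graft (0.65, adjusted p = 0.0449), and Mxd3 was lower in intestine than in blood (-1.23, adjusted p = 0.0262).

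RNA polymerase I transcribes the precursor of the ribosomal RNA. Of its 7 members, all tested, 4 were higher at day 4 (Polr1a, Polr1b, Polr1d and Polr1e), 1 was lower (Ubtf) and Polr1c and Rrn3 did not pass. Polr1e (probe at chr4:45044931-45044990), a subunit that helps the enzyme start transcription, was called higher. The graft arrays gave a log2 signal of -2.11, -2.93, -1.25 and -1.99, with none of the 4 clear of background, and it was 0.76, 1.22, 1.86, 1.28 and 1.46 in blood. It was 0.79, 1.31, 1.43, 1.33 and 0.28 in liver, 0.92, 0.56, 1.41, -2.32 and -0.51 in lung and 0.41, -0.13, 1.19, -2.28 and 0.47 in intestine. All blood and liver arrays lay above every graft array, while lung 4 and intestine 4 lay among the graft values and were not above background. In the main values Polr1e was at least 2.54-fold higher at day 4 (limma adjusted p = 0.000156, measured log2 means -2.07 and 0.57). This bound is set by the dimmest probes above background on the graft arrays. Over the 6 scalings the log2 difference ran from 1.08 to 2.64. Its other probe was at least 1.55-fold higher.

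Polr1b (probe at chr2:128951870-128951929) encodes the other large subunit of the catalytic centre beside Polr1a. Its log2 signal was 0.25, -0.24, -0.29 and 0.29 in the graft and 1.70, 1.29, 1.55, 0.66 and 2.21 in blood. It was 0.69, 1.26, 0.55, 0.88 and 0.51 in liver, 0.71, 0.68, 0.41, -0.28 and -0.35 in lung and 0.84, 0.64, 0.51, 0.37 and 0.11 in intestine. Every blood and liver array lay above every graft array, while lung 4, lung 5 and intestine 5 did not exceed the graft. The difference at day 4 was 0.74 ± 0.24 (SE), adjusted p = 0.0119 with limma, and it was called in blood (1.48, adjusted p = 0.000212) and liver (0.77, adjusted p = 0.0312) but not in lung (0.23, adjusted p = 0.559) or intestine (0.49, adjusted p = 0.198). The call over all sites ended under both detected-probe scalings (0.36 and 0.23, adjusted p = 0.327 and 0.471) and without graft 2 (0.66, adjusted p = 0.053) or graft 3 (0.65, adjusted p = 0.0555). Polr1a, the largest subunit, differed by 0.67 ± 0.22 (SE), adjusted p = 0.015, a call that ended with normexp (0.34, adjusted p = 0.0804), under both detected-probe scalings (0.29 and 0.16, adjusted p = 0.418 and 0.593) and without graft 2 (0.61, adjusted p = 0.0605).

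Polr1d, a subunit shared with RNA polymerase III, was higher on 20 of 20 day 4 arrays than on any graft array. Its graft values were 3.67, 3.95, 4.00 and 3.88, and the day 4 arrays ran from 4.57 to 6.30. The difference was 1.62 ± 0.25 (SE), adjusted p = 1.37e-05 with limma, and 1.69 (blood), 1.95 (liver), 1.42 (lung) and 1.43 (intestine). Polr1c, its partner in both enzymes, did not pass (0.45, adjusted p = 0.177), nor did Rrn3, the factor that makes the polymerase competent to start (0.095, adjusted p = 0.679).

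Ubtf (probe at chr11:102166995-102167054), the HMG-box protein that keeps ribosomal DNA open for the polymerase, went the other way. On the graft arrays its log2 signal was 7.28, 7.76, 8.03 and 7.61 and it was 6.44, 6.35, 5.34, 5.73 and 6.42 in blood. It was 6.37, 6.31, 5.98, 5.68 and 7.13 in liver, 6.02, 6.48, 6.17, 6.25 and 6.39 in lung and 6.33, 6.33, 6.49, 6.10 and 6.17 in intestine. All 20 day 4 arrays lay below every graft array, and the difference was -1.45 ± 0.22 (SE), adjusted p = 8.84e-06 with limma, a signal of 0.367 times the graft level. The probe behind this value holds an uninterrupted run of 29 alternating T and G bases among its 60. The other probe of Ubtf differed by -0.46, adjusted p = 0.0545, with 16 of 20 day 4 arrays below every graft array.

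Among the snoRNP proteins, 4 of 8 were higher (Nop58, Gar1, Nhp2 and Nop10), and 0 were lower. The box H/ACA particles, which turn uridines of ribosomal RNA into pseudouridine, have the enzyme dyskerin (Dkc1) and the small proteins Gar1, Nhp2 and Nop10 as their core. For Gar1 (probe at chr3:129527855-129527914) the graft arrays gave 2.78, 2.92, 2.50 and 3.22, and it was 5.01, 5.02, 4.71, 4.36 and 5.04 in blood. It was 4.62, 4.82, 4.21, 4.11 and 4.50 in liver, 4.33, 4.78, 4.51, 3.27 and 4.30 in lung and 4.28, 3.96, 3.96, 3.89 and 4.00 in intestine. Each day 4 array lay above every graft array, with the lowest, lung 4, just above the highest of the graft. Gar1 was 2.88-fold higher (1.53 ± 0.21 (SE), adjusted p = 2.47e-06 on the log2 scale, limma). Nhp2 was higher by 1.02 ± 0.19 (SE), adjusted p = 8.76e-05, again on 20 of 20 arrays, and Nop10 by 0.83 ± 0.22 (SE), adjusted p = 0.00327. The Nop10 call ended after quantile normalisation, in the deposited table and under both detected-probe scalings.

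Dkc1 itself (probe at chrX:72354473-72354532) did not pass. Its log2 signal was -0.88, -0.43, -0.61 and -0.15 in the graft and -0.007, -0.58, -0.75, -0.87 and -0.42 in blood. It was -0.34, -0.44, -0.33, -0.41 and 0.11 in liver, -0.53, -0.77, 0.15, -0.49 and -0.88 in lung and -0.55, -0.38, -0.46, -0.086 and -0.88 in intestine. The 5 groups overlapped throughout, and the difference was 0.074 ± 0.19 (SE), adjusted p = 0.766 with limma. Its sign changed between scalings and when graft 1 was left out (-0.045). That the estimates of Dkc1 and of its 3 partners differ from one another was not tested.

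Fibrillarin, Fbl (probe at chr7:28964229-28964288), the methyltransferase of the box C/D particles, did not pass either. The values were 5.23, 5.59, 6.26 and 5.35 in the graft and 5.90, 5.69, 5.26, 5.38 and 5.76 in blood. They were 5.72, 5.74, 5.37, 5.50 and 6.90 in liver, 5.71, 6.05, 6.14, 6.47 and 6.07 in lung and 5.90, 5.57, 6.09, 6.51 and 5.42 in intestine. Graft 3 was as high as the upper day 4 arrays, liver 5 stood highest of all, and the difference of 0.25 ± 0.24 (SE), adjusted p = 0.386 by limma lay within the spread of the graft, with a sign that changed between scalings (0.54, adjusted p = 0.00847, with normexp). Nop58, which scaffolds the same particles, was higher by 1.23 ± 0.23 (SE), adjusted p = 0.000113, and was not called in lung (0.66, adjusted p = 0.0718). Its relative Nop56 did not pass (0.43, adjusted p = 0.0635), a result that became a call without blood 4, lung 4, lung 5 or intestine 4 (0.46 to 0.47, adjusted p = 0.0362 to 0.0447). A further Nop56 probe, which the files place on chromosome X and not on the gene's own chromosome 2 (mm9), was higher by 1.48 (adjusted p = 0.000605). Nolc1, a chaperone of snoRNPs, did not pass (0.34, adjusted p = 0.521).

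Of 10 small subunit factors, 7 were tested: Heatr1 and Bysl were higher, Wdr75 and Tsr1 lower, and Wdr43, Rrp9 and Noc4l did not pass. Heatr1, Wdr43 and Wdr75 belong to the same subcomplex, which binds the nascent precursor and is needed for its transcription. Heatr1 (probe at chr13:12531103-12531160) had log2 signals of 2.92, 3.23, 3.05 and 3.13 in the graft and 4.07, 4.16, 4.80, 4.17 and 4.91 in blood. It was 3.74, 4.03, 3.94, 3.92 and 4.08 in liver, 3.92, 3.66, 4.05, 3.25 and 3.83 in lung and 3.87, 3.59, 4.49, 3.38 and 3.90 in intestine. All 20 day 4 arrays lay above the graft, lung 4 by the least, and the difference was 0.90 ± 0.19 (SE), adjusted p = 0.000436 with limma.

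Wdr75 (probe at chr1:45879813-45880205) fell. It measured 0.82, 0.72, 0.89 and 0.62 on the graft arrays and -0.41, -0.12, -0.42, -1.59 and -0.16 in blood. It was -0.40, -0.18, -0.71, -2.99 and 0.10 in liver, -0.78, -0.30, -2.07, -1.29 and -0.83 in lung and -1.44, -0.38, -0.88, -1.44 and -0.042 in intestine. No day 4 array reached a graft array, and only 10 of 20 were well above background, against 4 of 4 in the graft. The difference was -1.58 ± 0.40 (SE), adjusted p = 0.00202 with limma, and it was called at each site, from -1.30 in blood to -1.82 in lung.

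Wdr43 (probe at chr17:72007156-72007215) lay at 1.72, 1.81, 1.29 and 2.08 in the graft and 2.89, 2.98, 2.73, 2.45 and 2.74 in blood. It was 2.70, 2.75, 2.51, 2.82 and 2.64 in liver, 2.52, 2.59, 1.20, 0.11 and 1.05 in lung and 2.85, 2.58, 2.81, 1.96 and 2.60 in intestine. Blood, liver and 4 of 5 intestine arrays were above the graft, whereas lung 3, lung 4 and lung 5 were below it. Over all sites the difference of 0.65 ± 0.29 (SE), adjusted p = 0.0638 with limma did not pass, but it passed in blood (1.03, adjusted p = 0.0178) and liver (0.96, adjusted p = 0.0293), and over all sites without lung 4 (0.74, adjusted p = 0.012) or intestine 4 (0.69, adjusted p = 0.0444). Its dimmer probe, not above background on any graft array, was at least 1.2-fold higher (adjusted p = 3.39e-06).

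Bysl (probe at chr17:47738282-47738341) encodes bystin, needed late in small subunit maturation. Its values were 1.62, 2.01, 1.77 and 2.01 in the graft and 2.91, 3.02, 3.60, 2.98 and 3.22 in blood. They were 2.63, 2.65, 3.19, 3.00 and 2.36 in liver, 2.65, 2.52, 2.75, 1.65 and 2.42 in lung and 2.50, 2.04, 2.75, 1.74 and 1.79 in intestine. Blood and liver lay wholly above the graft, while lung 4, intestine 4 and intestine 5 lay within it. Bysl was higher by 0.77 ± 0.21 (SE), adjusted p = 0.00403 with limma, though not after quantile normalisation, in the deposited table or under the detected-probe scalings. Tsr1, a factor that holds the late small subunit precursor inactive, was lower, with a log2 difference of -0.58 (adjusted p = 0.0129), on 18 of 20 arrays below every graft array. That call ended with normexp and with the mean of its probes. Rrp9 (0.19, adjusted p = 0.452) and Noc4l (0.037, adjusted p = 0.892) did not pass. Utp20, Nop14 and Rrp12 were not tested: none was well above background on any of the 24 arrays.

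**Figure D2:**
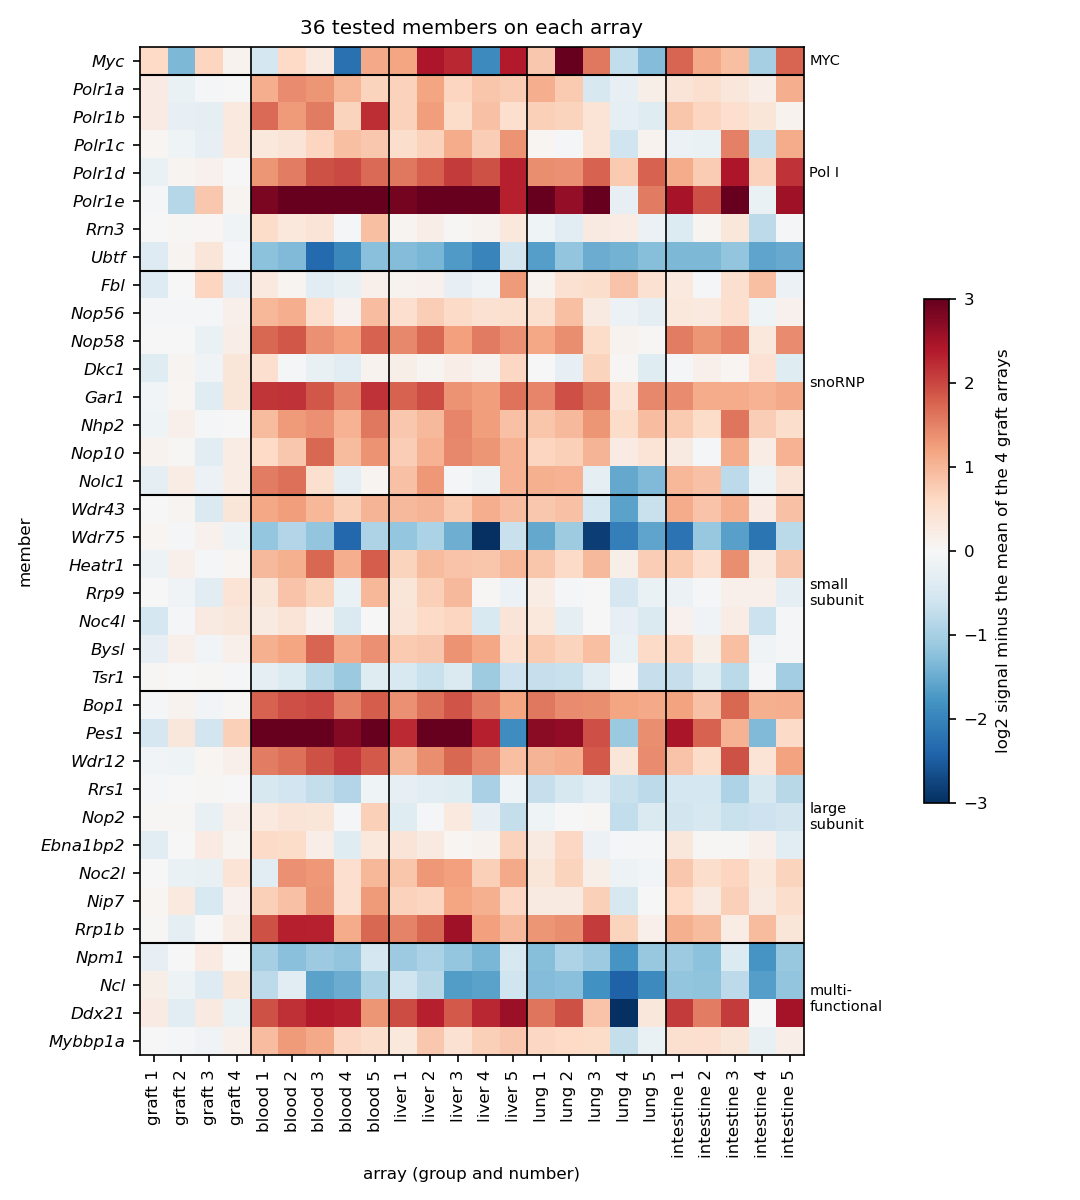
Log2 signal of each of the 36 tested members (rows, grouped by role) on each of the 24 arrays (columns), as the difference from the mean of the 4 graft arrays. Red is higher and blue lower, with colours ending at 3 log2 units in either direction; Polr1d, Gar1, Nhp2, Heatr1, Bop1 and Wdr12 are red on all 20 day 4 arrays and Ubtf, Wdr75, Rrs1 and Npm1 blue.

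Of 9 tested large subunit factors, 6 were higher (Bop1, Pes1, Wdr12, Noc2l, Nip7 and Rrp1b) and 1 was lower (Rrs1). Bop1, Pes1 and Wdr12 form the PeBoW complex, which is required to process the large subunit RNAs, and all of its members were called higher. The Pes1 call rests on graft signals below background, and the Wdr12 call on a probe of uncertain origin. Bop1 measured 2.59, 2.73, 2.55 and 2.67 in the graft and 3.51 to 4.61 on the day 4 arrays. This gap had no overlap, and the difference of 1.47 ± 0.16 (SE), adjusted p = 1.06e-07 was the most significant of all members by limma. Wdr12 was higher by 1.31 ± 0.24 (SE), adjusted p = 8.29e-05, on 20 of 20 arrays. Its probe lies on chromosome 7 in the files (mm9) while the gene is on chromosome 1, so the transcript behind it is uncertain. The probe on chromosome 1 was also called higher (adjusted p = 0.0104), but it was above background on 0 of 4 graft arrays and mainly in blood at day 4, too dim for a fold.

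Pes1 (probe at chr11:3879948-3880007) did not clear background in the graft. It read -1.66, -0.81, -1.70 and -0.43 there and 1.90, 2.30, 2.01, 1.60 and 1.96 in blood. It was 1.08, 2.00, 2.15, 1.18 and -3.02 in liver, 1.57, 1.51, 0.78, -2.26 and 0.23 in lung and 1.31, 0.62, -0.096, -2.47 and -0.56 in intestine. Blood was uniformly high, and liver 5, lung 4 and intestine 4 fell below every graft array. In the main values Pes1 was at least 2.67-fold higher at day 4 (limma adjusted p = 0.0334, measured log2 means -1.15 and 0.69). That bound allows for dim graft signal only, and over the 6 scalings the log2 difference ran from 1.05 to 1.84. The call ended under both detected-probe scalings (adjusted p = 0.118 and 0.11), with the slide as a random block (adjusted p = 0.0659), without a filter on signal (adjusted p = 0.052), and without graft 1 (adjusted p = 0.101), graft 2 (adjusted p = 0.0564) or graft 3 (adjusted p = 0.0984).

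Rrs1 (probe at chr1:9537213-9537272), which helps to place the small ribosomal RNA of the large subunit, was lower at day 4. Its graft values were close together at 0.92, 0.97, 1.02 and 0.99, and it was 0.49, 0.41, 0.26, 0.089 and 0.84 in blood. It was 0.73, 0.66, 0.61, 0.001 and 0.86 in liver, 0.28, 0.50, 0.66, 0.31 and 0.20 in lung and 0.44, 0.45, 0.060, 0.50 and 0.13 in intestine. All 20 day 4 arrays lay below the graft, with a difference of -0.55 ± 0.16 (SE), adjusted p = 0.00718 by limma that did not pass with normexp (adjusted p = 0.0577).

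Nop2 (probe at chr6:125094661-125094720), a methyltransferase of the large subunit RNA, did not differ over all sites by the test. It read 2.62, 2.60, 2.36 and 2.72 in the graft and 2.87, 2.97, 2.95, 2.54 and 3.29 in blood. It was 2.20, 2.54, 2.87, 2.33 and 1.86 in liver, 2.44, 2.60, 2.60, 1.84 and 2.13 in lung and 2.01, 2.09, 1.90, 1.96 and 2.03 in intestine. The blood arrays overlapped the graft at its upper end, and the 5 intestine arrays were all below it and close together. The limma difference from the graft was -0.17 ± 0.17 (SE), adjusted p = 0.412 over all sites and -0.58, adjusted p = 0.0403 in intestine. After quantile normalisation Nop2 was called lower over all sites (-0.66, adjusted p = 0.00352).

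Rrp1b, a nucleolar protein of large subunit processing, was higher by 1.32 ± 0.29 (SE), adjusted p = 0.00055 with limma, and not called in intestine (0.71, adjusted p = 0.123). Noc2l (0.65, adjusted p = 0.0217) and Nip7 (0.60, adjusted p = 0.0142), both needed for large subunit maturation, were called higher. Both calls ended with quantile normalisation, in the deposited table and under the detected-probe scalings, where the differences were 0.13 to 0.27 for Noc2l and 0.087 to 0.22 for Nip7. Noc2l was not called without graft 1 (0.65, adjusted p = 0.0515), graft 2 (0.58, adjusted p = 0.0787) or graft 3 (0.57, adjusted p = 0.0786), nor Nip7 without graft 3 (0.45, adjusted p = 0.0978). Ebna1bp2 did not pass (0.18, adjusted p = 0.413). Nop16 was above background on 2 arrays and Ftsj3 on 0 of 24, and neither was tested.

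The multifunctional nucleolar proteins split. Of the 4 tested, Npm1 and Ncl were lower, Ddx21 higher, and Mybbp1a did not pass (0.49, adjusted p = 0.0558), although it did without any 1 of blood 5, lung 4, lung 5 or intestine 4 (0.51 to 0.55, adjusted p = 0.0147 to 0.0487). Gnl3, above background on 1 array, was not tested. Nucleolin, Ncl (probe at chr1:88247953-88248012), a chaperone of the nascent ribosomal RNA, read 2.47, 2.15, 1.91 and 2.64 in the graft and 1.497, 1.98, 0.69, 0.81 and 1.34 in blood. It was 1.70, 1.46, 0.61, 0.68 and 1.70 in liver, 0.98, 1.04, 0.47, -0.12 and 0.37 in lung and 1.11, 1.08, 1.51, 0.65 and 1.12 in intestine. Blood 2 was the only day 4 array to reach a graft value. Ncl was lower at day 4, with a difference of -1.26 ± 0.25 (SE), adjusted p = 0.000242 by limma.

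Ddx21 (probe at chr10:62044862-62044921), an RNA helicase that couples polymerase I transcription to processing, had values of 1.34, 0.78, 1.36 and 0.91 in the graft and 3.02, 3.30, 3.47, 3.44 and 2.42 in blood. They were 3.04, 3.44, 2.94, 3.36 and 3.67 in liver, 2.71, 3.00, 1.95, -2.06 and 1.43 in lung and 3.2, 2.62, 3.199, 1.11 and 3.59 in intestine. Blood and liver lay wholly above the graft, and lung 4 lay far below it. The difference was 1.54 ± 0.55 (SE), adjusted p = 0.021 with limma, and the call ended without graft 2 (1.44, adjusted p = 0.0662) or graft 4 (1.48, adjusted p = 0.059). It also ended with quantile normalisation, in the deposited table and under the detected-probe scalings (1.03 to 1.16, adjusted p = 0.0837 to 0.0916), and with the mean of its probes (0.39, adjusted p = 0.402). The second probe of Ddx21 was called in the other direction (-0.77, adjusted p = 0.0471).

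Nucleophosmin (Npm1), a chaperone of histones and ribosome precursors, gave opposite answers from its 5 probes. The brightest, A_51_P467410 (chr11:33052565-33052624, mm9), stands for the gene in the counts. It read 6.70, 6.96, 7.203 and 6.96 in the graft and 5.97, 5.71, 5.87, 5.78 and 6.43 in blood. It was 5.87, 6.01, 5.79, 5.59 and 6.49 in liver, 5.68, 6.03, 5.88, 5.19 and 5.82 in lung and 5.88, 5.73, 6.56, 5.19 and 5.82 in intestine. All 20 day 4 arrays lay below the graft, with a difference of -1.10 ± 0.21 (SE), adjusted p = 0.00012 by limma. A_66_P129873 fell likewise, by 0.92 (adjusted p = 0.000778), on 20 of 20 arrays. The array annotation lists both for the same 2 of the 3 RefSeq transcripts of the gene.

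The remaining 3 probes rose. A_55_P2117243, listed only for the third transcript, was higher by 1.74 (adjusted p = 2.85e-05) on 20 of 20 arrays. A_55_P1954965, listed for all 3 transcripts, was higher by 0.76 (adjusted p = 0.0202) on 18 of 20 arrays. A_55_P2110718, listed for the same 3, was above background on 0 of 4 graft arrays and at least 1.47-fold higher (adjusted p = 0.00389). With the mean of the 5 probes in place of the brightest, the difference for Npm1 was 0.53 (adjusted p = 0.102), so the direction for this gene rests on the choice of probe.
Of these probes, 3 are printed to show how they are related, with the bases shared by the first pair in capitals.
A_55_P1954965: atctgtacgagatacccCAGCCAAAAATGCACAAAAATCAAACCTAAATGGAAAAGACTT
A_55_P2110718: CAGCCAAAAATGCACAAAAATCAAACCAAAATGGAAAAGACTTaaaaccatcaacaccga
A_66_P129873: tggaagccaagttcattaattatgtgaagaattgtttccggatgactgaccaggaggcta
The first pair overlap over 43 bases with 1 substitution, T45A, counted from the 5′ end of A_55_P1954965, so they read nearly the same stretch, and both rose. A_66_P129873, from a different stretch, fell.

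**Figure D3:**
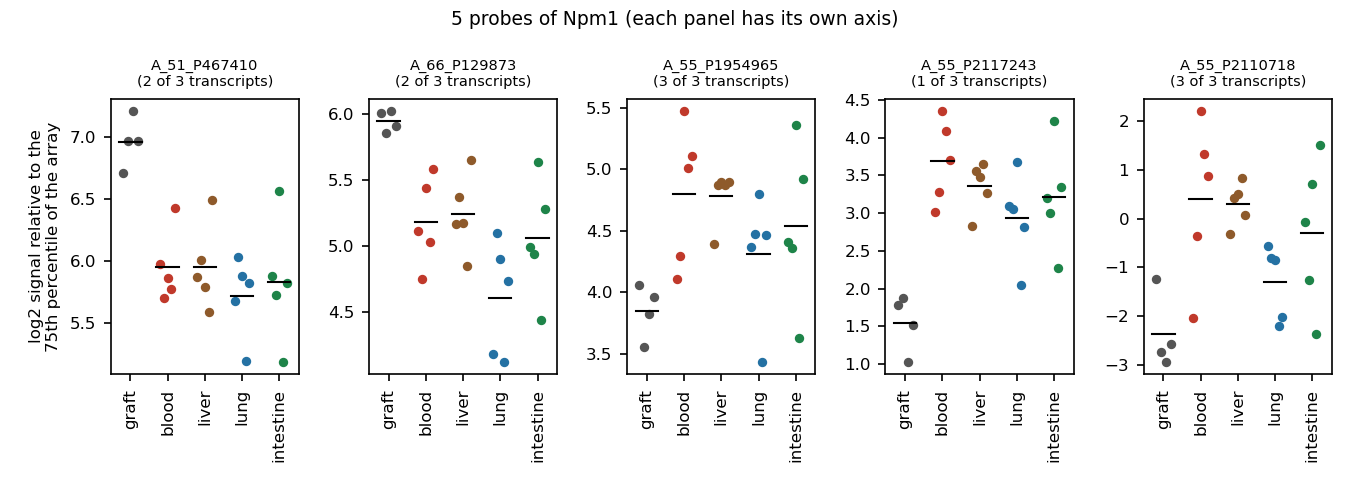
Log2 signal relative to the 75th percentile of the array (vertical axes, each panel on its own scale) for the 5 probes of Npm1, with 1 point per array and a line at each group mean, and the number of RefSeq transcripts each probe is listed for. The left pair of probes is lower on all 20 day 4 arrays than in the graft, and the other 3 have higher day 4 means.

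Of 11 members with more than 1 probe that passed the filter, 8 had all probes on the same side of 0. Calls agreed less often: Ubtf, Tsr1, Nip7, Nop56 and Wdr43 each had 1 probe called and 1 not called. Ebna1bp2 had probes of opposite sign (0.18 and -0.49), neither called, and for the second 17 of 20 day 4 arrays lay below every graft array. Npm1 and Ddx21 were the only ones of the 11 with probes called in both directions.

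Each site was also compared with the graft on its own. In blood 20 members were higher and 6 lower, where 34.5% and 22% of all tested genes were called. The counts were 19 and 5 in liver (background 33.6% and 16.7%), 8 and 5 in lung (25.7% and 11.7%) and 8 and 6 in intestine (21.6% and 13.3%). In either direction, 56.5% of all genes were called for blood, 50.3% for liver, 37.4% for lung and 34.9% for intestine. In lung and intestine the 22.2% of members called higher was thus near the background. The liver share depended on the scaling. It was 22.2% against 25.2% of all genes with quantile normalisation and 22.2% against 25.3% with the authors' log2 values. With the detected-probe median it was 19.4% against 19.7%, and with the detected-probe 75th percentile 25% against 20.5%. With normexp it was 61.1% against 34.7%. The members' median log2 difference was 0.83 for blood (0.25 over all genes) and 0.84 for liver (0.30 over all genes). It was 0.21 for lung (0.17) and 0.40 for intestine (0.065). The 4 comparisons share the graft arrays.

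Relative to all tested genes on the same array, the members' median lay 1.01 ± 0.16 (SD, n = 4) log2 units higher in the graft. Blood stood at 1.48 ± 0.12, liver at 1.31 ± 0.15, lung at 0.99 ± 0.29 and intestine at 1.26 ± 0.13 (SD, n = 5). All blood arrays (1.37 to 1.69) lay above all graft arrays (0.81 to 1.19), and the lung arrays (0.67 to 1.25) spanned the graft range. These medians hold genes of opposite direction and were not tested.

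The day 4 sites were compared among themselves to ask whether cells in the target tissues differed from those in blood. An F test over the 4 sites called 2 members, Polr1b (limma adjusted p = 0.038) and Nop2 (adjusted p = 0.0432), or 5.56% of those tested, where 4.72% of all genes were called. With the slide as a fixed block both missed the threshold (0.0765 and 0.082) and 0 members were called, where 0.663% of all genes were. At an unadjusted p under 0.05 there were 17 of 36 members (47.2%, against 30.5% of all genes), and 21 (58.3%, against 30.1%) with the slide block.

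By pairs, intestine was lower than blood for 7 of 36 members (19.4%, background 11.5%) and higher for 0 (background 1.74%). These were Nop2 (-0.93 ± 0.20 SE, adjusted p = 0.0116), Bysl (-0.98 ± 0.24, adjusted p = 0.0162), Polr1b (-0.99 ± 0.28, adjusted p = 0.0259), Rrp1b (-1.17 ± 0.33, adjusted p = 0.0285), Gar1 (-0.81 ± 0.24, adjusted p = 0.0339), Bop1 (-0.61 ± 0.18, adjusted p = 0.0351) and Wdr12 (-0.83 ± 0.28, adjusted p = 0.0485), all by limma. They cover polymerase I, the H/ACA particle and both subunits. For each of the 7, intestine was below blood on 5 of 5 slides. They were picked on these same arrays, so this adds no separate evidence. Members not called, among them Polr1e, Rrn3, Nop10 and Heatr1, were also below on 5 of 5 slides. With the slide as a fixed block the same 7 were called, with adjusted p from 0.026 to 0.0495 (background 9.56%). Among the other scalings, the share called lower exceeded that of all genes only with normexp (25% against 12.1%). It was 5.56% against 6.1% with quantile normalisation and 5.56% against 6.07% with the authors' log2 values. With the detected-probe median it was 2.78% against 3.43%, and with the detected-probe 75th percentile 0% against 1.34%. For Nop2 the differences within slides were -0.86, -0.88, -1.05, -0.58 and -1.26, and no intestine array reached a blood array.

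Lung was lower than blood for Polr1b (-1.25 ± 0.28 SE, limma adjusted p = 0.0231, background 0.631%) and for no other member. For Polr1b lung was below blood on 5 of 5 slides, as it was for Gar1 and Heatr1, which were not called. Polr1b was called with the slide as a block too (adjusted p = 0.0464, background 0.358%). By estimate alone, 31 of 36 members were below blood in lung and 31 in intestine, where 58.1% of all genes were in each. Liver and blood differed for 0 members, and 3 had an unadjusted p under 0.05 (3.23% of all genes). The pairs of lung or intestine with liver, and of intestine with lung, also had 0 calls by limma, with 8, 3 and 3 members at an unadjusted p under 0.05 (17.2%, 22.5% and 8.78% of all genes). Over all genes, calls in either direction were 0% in liver against blood and in intestine against liver, 0.442% in lung against liver and 0.389% in intestine against lung. A gene that missed the threshold is not shown to be equal between sites.

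The pair calls rested on few arrays. Members called lower in intestine than in blood numbered 2 without blood 3, blood 5 or intestine 2, 3 without blood 2 or intestine 4, and 12 without intestine 3, and 0 in a fit to those sites' arrays alone. In lung against blood they numbered 0 without lung 4, lung 5, blood 3 or blood 5, 2 without lung 3 or intestine 5, 3 without lung 2 or intestine 4, and 10 without lung 1. Among the 4 sites they numbered 0 without any 1 of liver 1, liver 2, liver 4, lung 5, blood 1, blood 2, blood 3, blood 5, intestine 1, intestine 2 or intestine 4, 1 without lung 4 or any 1 graft array, 3 without lung 3, 4 without liver 5 or lung 2, 5 without lung 1, 6 without intestine 5 and 7 without intestine 3. Without both lung 4 and intestine 4 there were 5 in intestine against blood.

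Other lists moved with site as well. Cell cycle genes were lower in intestine than in blood for 15 of 25 tested (median log2 difference -1.23), where 11.5% of all tested genes were. The summed signal of intestinal epithelial markers reached 306 in intestine (lowest 1.6) against 1.43 to 3.75 in blood. Lung epithelial markers summed to 16.9 to 174 in lung and 9.21 to 14.3 in blood. Dendritic cell and MHC class II markers summed to 35.6 to 54.6 in blood, 61 to 201 in lung and 43.5 to 313 in intestine, where 1 of 7 tested (Cd74, adjusted p = 0.0259) was called higher than in blood. Macrophage markers reached 133 in lung and 142 in intestine, against 11.4 in blood. The part of any of these in the members' differences was not tested.

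**Figure D4:**
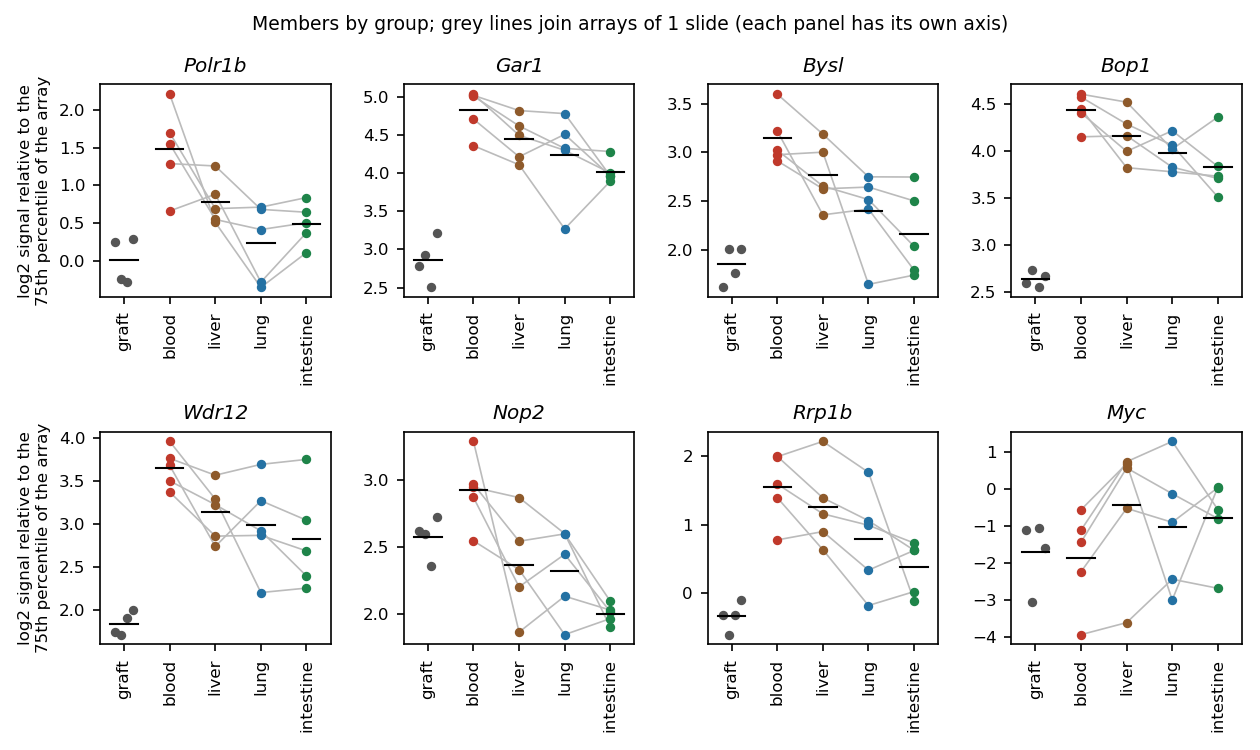
Log2 signal relative to the 75th percentile of the array (vertical axes, each panel on its own scale) for the 7 members called lower in intestine than in blood, and Myc, with 1 point per array, a line at each group mean and grey lines joining arrays of the same slide. For the 7 members the intestine array lies below the blood array on all 5 slides, while the Myc arrays of each group spread widely.

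Genes of the same pathways that are not among the 42 were counted from fixed lists. Of 102 tested genes in 6 such lists, 44 were higher at day 4, 7 were lower and 51 did not pass (limma). Counts of these lists are given in the main values only. Over all tested genes 33.6% were higher and 20% lower. The median log2 difference was 0.47 against 0.20 over all tested genes. Some genes called higher were above background on 0 of 4 graft arrays and entered the test through the day 4 groups. Among these, Las1l, Taf1d and Polr3b had lower bounds of the fold (0.969, 0.748 and 0.732) that did not show a rise. Other small subunit factors had 12 of 29 higher and 0 lower, led by Utp23 (at least 2.22-fold) and Nol6 (2.05, adjusted p = 1.71e-06). Other large subunit factors had 13 of 29 higher, with Pelp1 (2.09) and Ddx18 (2.58) first, and 2 lower, Nop53 (-1.22, adjusted p = 0.000143) and Surf6 (-0.52, adjusted p = 0.019). In the exosome, which trims and degrades ribosomal RNA, and the machinery that assembles snoRNPs, 9 of 16 were higher, among them Exosc3 (1.83) and the helicase Ruvbl1 (1.54). The exosome subunit Exosc9 was lower (-2.35, adjusted p = 2.35e-09).

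Of 9 other RNA polymerase I genes, 5 were higher, including the subunits Polr2h (1.68) and Polr2e (0.78) that are shared with the other nuclear polymerases, and Taf1c was lower (-0.57, adjusted p = 0.0205). RNA polymerase III, which makes transfer RNA, had 5 of 15 genes higher and 3 lower by limma, where 33.6% and 20% of all tested genes were. Gtf3c1 (at least 2.02-fold) and Gtf3a (1.88), factors that recruit it, led the higher ones, and the lower ones were Polr3e (-1.20, adjusted p = 0.0118), Polr3gl (-1.22, adjusted p = 0.0291) and Brf1 (-0.59, adjusted p = 0.0225). Cell cycle genes, counted beside these, were higher for 24 of 25 tested. In intestine 24 of the 102 pathway genes were lower than in blood (11.5% of all tested genes) and 0 higher (1.74%). This count is not given under the other scalings. For the members, the excess over all genes in that pair was seen only in the main values and with normexp.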

How the data were processed

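The authors deposited 1 scanner file per array, in which the processed signal is a linear intensity after background subtraction by Agilent Feature Extraction (version 10.7 per the submitters' processing notes, 9.5.1.1 per the file headers). They also deposited a table of log2 values, which tested on the files as quantile-normalised log2 signal centred per probe (lowest correlation 0.99977 over 39397 probes), and which served as an alternative. How the table was made is not given in the sources used here. Probe positions are on mm9 per the file headers.

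From the deposited intensity, log2 values were taken minus each array's 75th percentile over gene spots. Non-uniform spots were left out and spots of a probe averaged. The tests covered named probes that were well above background on all arrays of at least 1 group, or all but 1 of them (11345 probes), with each gene represented by its brightest probe on average (9509 genes). Symbols came from the array annotation, updated through a RefSeq gene table. A limma model (limma 3.58.1, R 4.3.3) with 1 mean per group was fitted to all 24 arrays, and called means a Benjamini-Hochberg adjusted p under 0.05 over all tested genes. It was tested on simulated data. A gene above background on no graft array is given as a lower bound of the fold in the main values. The bound allows for dim graft signal only, and not for the spread of the arrays or for other scalings.

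The members, the lists and the alternatives were chosen with earlier results of these data known. Values on every array are given for Myc, Npm1, Ncl, Fbl, the highest and lowest estimates of each other role and the 4 smallest F-test p-values. Of the pathway lists, up to 2 genes called higher with the smallest p and every gene called lower are named. Polr1d and Bop1 were added to those with array values after their values were seen. Alternatives were other background corrections, scalings, filters, probe rules, array weights, blocks and each array left out. The use of each further probe was added after seeing the data. The number of arrays limits the precision.

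Same-numbered day 4 arrays share a slide, since each day 4 slide holds the arrays of 1 number. The slide entered as a batch.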

Additional observations from a re-analysis of the deposited data

Results flagged for a closer look

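In 85 groups of arrays, 5 arrays or 4 each, 8 had an array far from the rest by Dixon's criterion, which chance meets in about 1 of 20 groups. Liver 4 was low for Myc (-3.60, nearest -0.51), Wdr75 (-2.99, nearest -0.71) and Rrs1 (0.001, nearest 0.61), and blood 4 for Wdr75 (-1.59, nearest -0.42). Liver 5 was low for Pes1 (-3.02, nearest 1.08) and high for Fbl (6.90, nearest 5.74) and Dkc1 (0.107, nearest -0.33). Intestine 1 was high for Gar1 (4.28, nearest 4.00).

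A limma F test among the day 4 sites called Polr1b (adjusted p = 0.038) and Nop2 (adjusted p = 0.0432). These were 2 of 36 tested members, where 4.72% of all genes were called. With the slide as a fixed block 0 members were called. Polr1b was lower in lung than in blood by -1.25 and in intestine than in blood by -0.99. Intestine was below blood by -0.81 for Gar1, -0.98 for Bysl, -0.61 for Bop1, -0.83 for Wdr12, -0.93 for Nop2 and -1.17 for Rrp1b. Over all tested genes 11.5% were called lower in intestine than in blood and 0.631% lower in lung than in blood.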

How the results depend on the processing

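Left out one at a time, arrays moved the members called over all sites between 18 and 26 (higher 12 to 20, lower 6 in each), in blood between 22 and 26, in liver 20 and 25, in lung 11 and 18 and in intestine 12 and 17. They moved calls among the sites between 0 and 7, in lung against blood 0 and 10, in intestine against blood 2 and 12 and in lung against liver 0 and 1, and the log2 difference of Myc between 0.22 and 0.89. With the 75th percentile of detected probes 15 members were called over all sites (9 higher), with their median 9 were higher, and with the filter on all arrays 15 (11 higher; 17 in blood), where fewer genes enter. Liver had 15 calls with quantile normalisation, both detected-probe scalings and the deposited table, and intestine 22 with array weights. Among the sites there were 0 calls with those 4 scalings, without a signal filter, with slide as a fixed block and with only the groups compared, 7 with slide as a random block, 16 with array weights and 1 with the replicate block, and 0 without lung 4 and intestine 4. Lung against blood had 3 with normexp, 4 with array weights or the random slide block, and 0 with those 4 scalings, the filter on all arrays, only the groups compared or without lung 4 and intestine 4. Intestine against blood had 2 with quantile normalisation, the deposited table or no filter, 1 with the detected-probe median, 0 with the detected-probe 75th percentile or only the groups compared and 16 with array weights. The share of all genes called lower there moved too: 11.5% in the main values, 6.1% with quantile normalisation, 3.43% and 1.34% with the detected-probe median and 75th percentile. No such share is given for array weights, filters or left-out arrays. Their counts therefore do not separate a change in the members from a change in calling over all genes. Array weights also gave 1 call in lung against liver and 4 in intestine against liver. The cause was not tested. Npm1 reversed with the mean of its probes (0.53) and with probes A_55_P1954965 (0.76), A_55_P2117243 (1.74) and A_55_P2110718 (fitted at 2.15 against graft signals below background, so at least 1.47-fold), and Ddx21 with probe A_52_P372032 (-0.77). Myc was not called in any of 36 alternatives (adjusted p 0.0592 to 0.961). Deviations from the group means correlated over 0.1 in 18 of 30 same-numbered day 4 pairs (median 0.148), which share a slide, and in 37 of 120 others (median -0.043). Pairing by number was set to need every pair over 0.1, and the slide block stands beside the site results.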
